A study of Mus musculus with 4 samples.

Results

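The TNF receptor superfamily is a family of membrane proteins through which cells receive signals of survival, activation or death from ligands related to tumour necrosis factor (TNF). Its mRNAs were followed here in Treg cells, the CD4 T cells that depend on Foxp3 and hold other lymphocytes in check. The 9 members were taken by their gene symbols, which cover death receptors and costimulatory receptors of T cells, and all 9 were found among the 19044 genes of the count table. Of these, 4 carry a death domain (Tnfrsf1a, Fas, Tnfrsf10b and Tnfrsf25) and 5 do not (Tnfrsf1b, Tnfrsf4, Tnfrsf8, Tnfrsf9 and Cd27).

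RNA was sequenced from Treg cells of spleen and lymph nodes of untreated mice. Ripk1fl/fl Foxp3-YFP-Cre mice, labelled Ripk1 knockout, carry Ripk1 flanked by loxP sites together with a Cre recombinase that is made with yellow fluorescent protein under Foxp3 control, so that Cre acts in cells that express Foxp3. Foxp3-YFP-Cre mice, labelled WT, carry the Cre alone. Each genotype gave 1 library named aTreg and 1 named rTreg, names that in this field stand for activated and resting Treg cells. How these cells were sorted is not stated in the labels, nor are the age and number of the mice or any pooling. With 4 libraries and 1 per combination, no group has a replicate, and intervals in brackets are 95% counting intervals only.

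Receptors with a death domain can assemble complexes that contain the adaptor FADD and caspase-8, or, when caspase-8 is blocked, RIPK3 and MLKL, and RIPK1 takes part in both as kinase and scaffold. Receptors without a death domain bind TRAF proteins and drive NF-kappaB. Treg cells are known for high levels of several of these costimulatory receptors, and TNFR2, OX40 and DR3 can promote their expansion.

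The libraries held 17588754 to 20868319 counts. Ripk1 itself was at 80.8 CPM (counts scaled to a common library size with TMM factors) in the aTreg and 84.7 CPM in the rTreg library labelled knockout, against 77.5 CPM in WT aTreg and 83.6 CPM in WT rTreg, so counts over the whole gene do not show a deletion, and such libraries are named KO-labelled here. The labels do not state which part of Ripk1 is flanked. Foxp3 lay between 619 and 694 CPM in the 4 libraries, and all 6 Treg markers were present, with summed levels of 3429 and 3430 CPM in the KO-labelled aTreg and rTreg libraries and 3368 and 3071 CPM in the WT aTreg and rTreg libraries. Of the 6, Il2ra alone was called for genotype in the edgeR fit described below, where 47.2% of all tested genes were. It was higher, at 643 and 780 CPM in KO-labelled aTreg and rTreg against 499 and 557 CPM in WT aTreg and WT rTreg. The 4 B cell markers summed to 12.6 to 18.7 CPM and the 8 myeloid markers to 14.1 to 21.5 CPM, most of which came from Cd79b (8.77 to 14.1 CPM) and Cd79a (3.16 to 5.22 CPM) for B cells and Cd68 (12.2 to 14.4 CPM) for myeloid cells. Ms4a1 was at 0 in KO-labelled aTreg, Adgre1 at 0 in KO-labelled aTreg, Itgax at 0 in WT aTreg, and S100a8 and S100a9 at 0 in WT rTreg. Itgam was at 2.03 and 2.78 CPM in the KO-labelled aTreg and rTreg libraries, against 0.291 and 0.715 CPM in WT aTreg and WT rTreg. CD8 T cell markers (2 genes) summed to 7.82 to 12.9 CPM and plasma cell markers (3 genes) to 77.3 to 95.3 CPM, nearly all of it Xbp1. NK cell markers (2 of 4 genes in the table) summed to 7.35 and 7.27 CPM in the KO-labelled aTreg and rTreg libraries, against 2.91 and 2.19 CPM in WT aTreg and WT rTreg, with Eomes at 5.97 and 6.98 CPM against 0.583 and 1.57 CPM. Erythroid markers (4 genes) summed to 10.8 and 9.99 CPM in the KO-labelled aTreg and rTreg libraries, against 0.971 and 0.238 CPM in WT aTreg and WT rTreg. The part of these markers in the genotype effects of the receptors was not tested. Xist, which is transcribed from the inactive X chromosome of females, had 4 and 5 counts in the KO-labelled libraries and 6955 and 6271 counts in WT aTreg and WT rTreg, while 4 Y-linked genes summed to 216 to 307 CPM in all libraries. The makeup of the libraries by sex therefore differed between the genotypes, and it cannot be told apart from genotype in any genotype value below.

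Set per kilobase of exon, the 9 members spanned a wide range of mRNA levels in these cells. Tnfrsf4 (OX40) and Cd27 were the most abundant, at 140 to 255 CPM per kilobase for Tnfrsf4 and 136 to 159 for Cd27 over the 4 libraries, ranges that overlap. Tnfrsf1b (TNFR2, 54.5 to 111 CPM per kilobase) and Tnfrsf25 (DR3, 56.0 to 78.2) followed with overlapping ranges, and Tnfrsf9 (4-1BB, 26.9 to 59.0) overlapped both only at its upper end. Fas lay lower, at 20.4 to 24.4 CPM per kilobase, and Tnfrsf1a (TNFR1) lower still, at 10.5 to 14.2, with no overlap between them or with the genes above. Tnfrsf8 (CD30, 1.13 to 4.59) and Tnfrsf10b (the TRAIL receptor DR5, 1.90 to 2.90) were the least abundant, with overlapping ranges. TNF binds both TNFR1 and TNFR2, and per kilobase Tnfrsf1b stood above Tnfrsf1a by a factor of 10.6 in KO-labelled aTreg, 7.15 in KO-labelled rTreg, 8.66 in WT aTreg and 3.83 in WT rTreg. The level of Tnfrsf1b relative to Tnfrsf1a was thus lowest in WT rTreg and highest in KO-labelled aTreg.

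**Figure D1:**
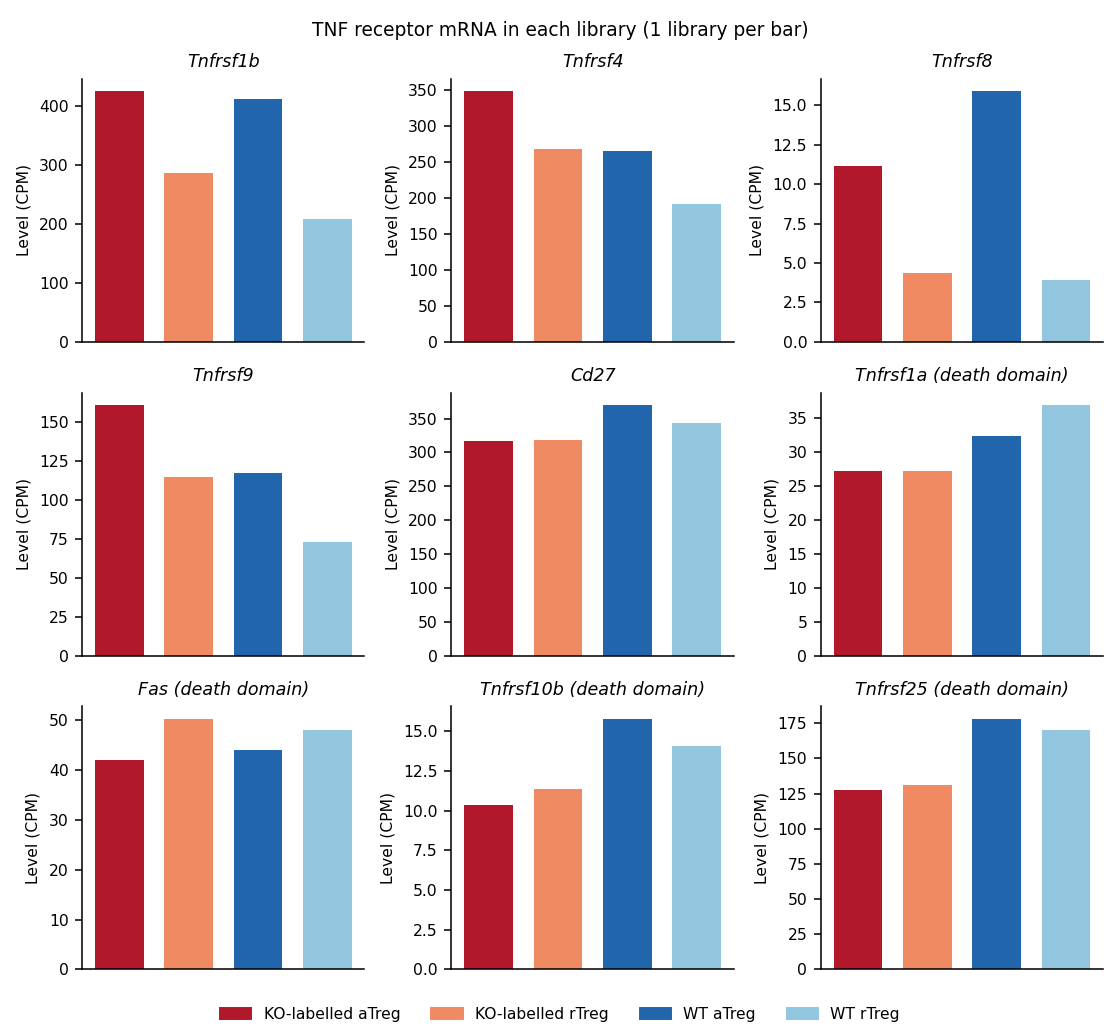
Level of each TNF receptor mRNA (CPM, vertical axes, each starting at 0) in the 4 libraries, 1 bar per library, with the 4 death receptors marked in their titles. Tnfrsf1b, Tnfrsf4, Tnfrsf8 and Tnfrsf9 stand higher in the aTreg bar of each genotype, and Tnfrsf25 and Tnfrsf10b stand lower in both KO-labelled bars.

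In aTreg, the mRNAs of the costimulatory receptors TNFR2, CD30, 4-1BB and OX40 rose. Those of CD27 and the 4 death receptors did not pass the test. The test was edgeR's quasi-likelihood fit of the 9680 genes whose mean reached 5 CPM, with state and genotype as additive terms, called at a Benjamini-Hochberg adjusted p of 0.05. All 9 members passed the level minimum, although Tnfrsf8 was under 5 CPM in both rTreg libraries and passed through its aTreg level, so its change is in part fixed by the minimum. The fit called 4 of the 9 members for state, all 4 higher in aTreg, where 7.91% of all tested genes were called higher, 5.44% lower and 13.4% in either direction. Among receptors without a death domain these were 4 of 5, with a median state effect of 0.58 log2 units, and among death receptors 0 of 4, with a median of −0.04, beside a median of 0.00 over all tested genes. The genes were grouped with earlier results of these data known, so the counts describe the family and test nothing about it. At an unadjusted p of 0.05, 5 members passed, Fas being the further gene, as did 2555 of the 9680 tested genes.

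Tnfrsf8 encodes CD30, a receptor of activated lymphocytes, and showed the widest range of the 9 members. It was at 11.1 CPM in KO-labelled aTreg against 4.37 CPM in KO-labelled rTreg, and at 15.9 CPM in WT aTreg against 3.91 CPM in WT rTreg. Both aTreg libraries therefore lay above both rTreg libraries. These levels rest on 209, 77, 327 and 82 counts in KO-labelled aTreg, KO-labelled rTreg, WT aTreg and WT rTreg. The ratio of aTreg over rTreg was 1.33 log2 units [0.97 to 1.75] in the KO-labelled pair and 1.99 [1.67 to 2.39] in WT, and the additive effect was 1.70 (SE 0.216, edgeR adjusted p = 0.000217). It was the sole member at least 2-fold apart between states, in both pairs, where 1.08% of tested genes were so in the KO-labelled pair and 2.59% in WT. Since Tnfrsf8 passed the level minimum through its aTreg level, its call and its place beside these shares are in part fixed by that minimum.

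Tnfrsf1b encodes TNFR2, the TNF receptor through which TNF supports Treg cells. It was at 425 CPM in KO-labelled aTreg against 286 CPM in KO-labelled rTreg, and at 413 CPM in WT aTreg against 208 CPM in WT rTreg. The aTreg libraries were close to each other and the rTreg libraries further apart. The ratio of aTreg over rTreg was 0.57 [0.52 to 0.62] in the KO-labelled pair and 0.99 [0.94 to 1.04] in WT; the WT pair was 1.98-fold apart, and the gene rose by 0.78 (SE 0.0891, edgeR adjusted p = 9.9e-05).

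Tnfrsf9 encodes 4-1BB, a receptor induced by T cell receptor signals. It was at 161 CPM in KO-labelled aTreg against 115 CPM in KO-labelled rTreg, and at 117 CPM in WT aTreg against 73.1 CPM in WT rTreg. Within each genotype the aTreg library was higher, while KO-labelled rTreg and WT aTreg were nearly level. The ratios were 0.49 [0.40 to 0.57] in the KO-labelled pair and 0.68 [0.59 to 0.77] in WT, and the additive effect was 0.58 (SE 0.0705, edgeR adjusted p = 0.000148). Tnfrsf4 encodes OX40, likewise induced on activation and constitutively present on Treg cells. It was at 348 CPM in KO-labelled aTreg against 268 CPM in KO-labelled rTreg, and at 266 CPM in WT aTreg against 191 CPM in WT rTreg. Its ratios were 0.38 [0.32 to 0.43] and 0.48 [0.42 to 0.54], and it rose by 0.43 (SE 0.0675, edgeR adjusted p = 0.00106), the smallest state change among the 4 called members.

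Cd27, the receptor of CD70 on naive and memory T cells, was the receptor without a death domain that did not pass for state. It was at 317 and 318 CPM in KO-labelled aTreg and rTreg and at 370 and 343 CPM in WT aTreg and rTreg, with a state effect of 0.05 (SE 0.0684, edgeR adjusted p = 0.685). Fas, the receptor of Fas ligand that recruits FADD, was the death receptor nearest to a change with state. It was at 42.1 CPM in KO-labelled aTreg against 50.2 CPM in KO-labelled rTreg, and at 44.0 CPM in WT aTreg against 48.1 CPM in WT rTreg, an effect of −0.19 (SE 0.0862, edgeR adjusted p = 0.175). Both aTreg libraries were thus below both rTreg libraries in Fas, by less than the test could call. The state effects of Tnfrsf25 (0.01, SE 0.066), Tnfrsf10b (0.03, SE 0.160) and Tnfrsf1a (−0.10, SE 0.106) did not pass either, with edgeR adjusted p values of 0.924, 0.943 and 0.622.

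DESeq2 with the same terms called the same 4 members for state, where it called 4.37% of tested genes. None was called by edgeR when genotype was left out of the model, a fit that called 0 of all tested genes, with 2 members (Tnfrsf1b and Tnfrsf8) and 328 genes at an unadjusted p under 0.05. The error of the additive fit has 1 residual degree of freedom and is the spread of pairs of libraries, shared in large part over genes, so p-values do not measure the spread between mice. In these bulk libraries, fewer cells of a type and less RNA per cell cannot be told apart. Dividing-cell markers also differed between the states: 4 of 10 fell in aTreg and none rose, beside 5.44% of all tested genes called lower. Their sums were 1282 CPM in KO-labelled aTreg against 1451 CPM in KO-labelled rTreg, and 286 CPM in WT aTreg against 538 CPM in WT rTreg. Their part in the state effects of the receptors was not tested.

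**Figure D2:**
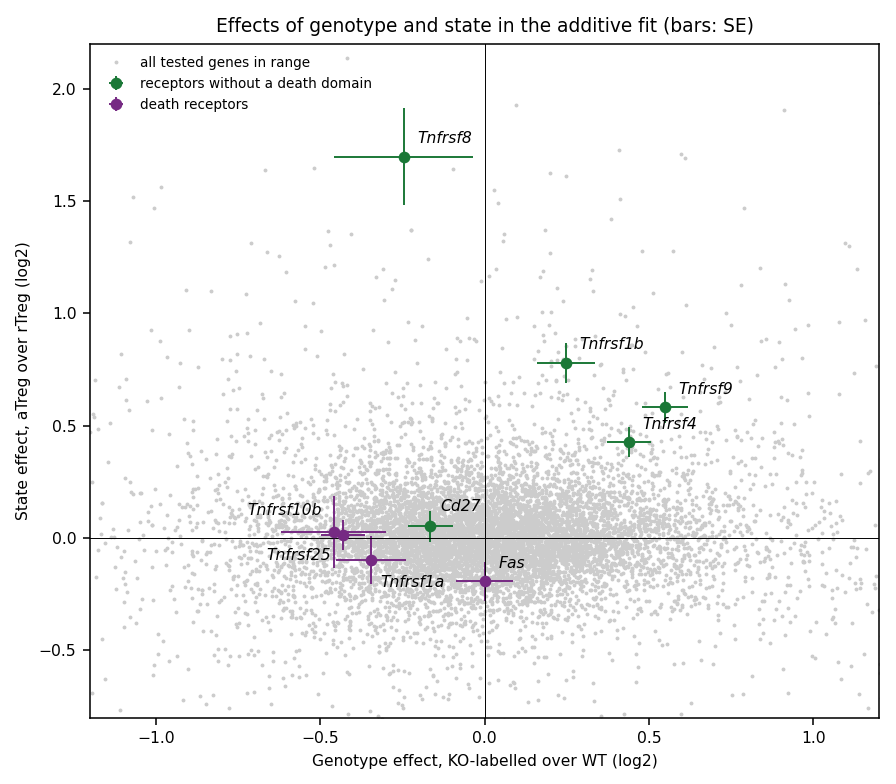
Effect of genotype (horizontal axis, log2 of KO-labelled over WT) against effect of state (vertical axis, log2 of aTreg over rTreg) in the additive edgeR fit, with bars of 1 SE for the 9 receptors and grey points for other tested genes inside the axis limits. The death receptors lie near or below 0 on the vertical axis, with state effects of −0.19 to 0.03, and 4 receptors without a death domain lie at 0.43 to 1.70.

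Position and upstream sequence were compared as features that the choice of genes did not use. Of the 9 genes, 5 lie on chromosome 4 of GRCm38: Tnfrsf1b (145213463 to 145246870, minus strand), Tnfrsf8 (145267137 to 145315164, minus strand), Tnfrsf9 (150914562 to 150946102, plus strand), Tnfrsf25 (152115934 to 152120119, plus strand) and Tnfrsf4 (156013843 to 156016612, plus strand). The 4 members that rose in aTreg are all on this chromosome, as is Tnfrsf25, which was not called for state. How often other tested genes on it were called was not counted, so the shared position is a description only. Tnfrsf1b and Tnfrsf8 are separated by 20.3 kb with no protein-coding gene between them. Cd27 (chromosome 6, 125232622 to 125237010, minus strand) and Tnfrsf1a (chromosome 6, 125349362 to 125362484, plus strand) are 112 kb apart, with Ltbr, the lymphotoxin beta receptor gene, Tuba3a and Scnn1a between them. Tnfrsf10b lies on chromosome 14 (69767472 to 69784411, plus strand) and Fas on chromosome 19 (34290666 to 34327772, plus strand). No member shares exon bases with an annotated gene on the opposite strand in GENCODE M21. On the same strand, Cd27 shares 129 exon bases with the microRNA gene Mir8113, which is not in the count table.

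The 250 bases upstream of the RefSeq start are shown for the 4 genes that rose in aTreg, and for Fas and Tnfrsf25, which did not but hold a match to a searched motif. RefSeq sequences (GRCm38.p6) were available for 8 of the 9 members, and they are written 5′ to 3′ on the strand of the gene, with capitals for matches on either strand to a kappaB-like motif (GGGA, 4 bases of any kind, then CC) or an AP-1-like motif (TGANTCA), which do not overlap each other.
Tnfrsf1b (chr4:145246871-145247120, minus strand): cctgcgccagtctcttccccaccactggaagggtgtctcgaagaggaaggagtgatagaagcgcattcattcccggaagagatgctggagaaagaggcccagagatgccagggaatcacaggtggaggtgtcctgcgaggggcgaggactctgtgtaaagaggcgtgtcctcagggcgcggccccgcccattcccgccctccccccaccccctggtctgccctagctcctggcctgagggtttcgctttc
Tnfrsf4 (chr4:156013445-156013694, plus strand): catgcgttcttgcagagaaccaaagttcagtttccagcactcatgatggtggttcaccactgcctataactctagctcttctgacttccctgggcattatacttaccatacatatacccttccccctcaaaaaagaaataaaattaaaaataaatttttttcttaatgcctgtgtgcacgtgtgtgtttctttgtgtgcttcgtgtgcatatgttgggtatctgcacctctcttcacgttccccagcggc
Tnfrsf8 (chr4:145315165-145315414, minus strand): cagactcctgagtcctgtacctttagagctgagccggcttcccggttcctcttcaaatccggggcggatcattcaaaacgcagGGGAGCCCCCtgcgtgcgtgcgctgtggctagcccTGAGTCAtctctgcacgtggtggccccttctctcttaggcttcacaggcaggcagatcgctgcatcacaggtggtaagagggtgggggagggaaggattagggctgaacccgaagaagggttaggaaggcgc
Tnfrsf9 (chr4:150919905-150920154, plus strand): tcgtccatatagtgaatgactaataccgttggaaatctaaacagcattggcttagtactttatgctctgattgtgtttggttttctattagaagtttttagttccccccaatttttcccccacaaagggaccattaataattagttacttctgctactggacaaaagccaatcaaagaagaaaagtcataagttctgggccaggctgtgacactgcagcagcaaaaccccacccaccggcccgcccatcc
Fas (chr19:34290409-34290658, plus strand): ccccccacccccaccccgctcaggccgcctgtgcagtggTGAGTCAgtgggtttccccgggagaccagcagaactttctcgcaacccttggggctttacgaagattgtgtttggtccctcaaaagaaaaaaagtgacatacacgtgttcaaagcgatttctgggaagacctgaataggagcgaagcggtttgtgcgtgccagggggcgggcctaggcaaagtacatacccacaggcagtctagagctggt
Tnfrsf25 (chr4:152115684-152115933, plus strand): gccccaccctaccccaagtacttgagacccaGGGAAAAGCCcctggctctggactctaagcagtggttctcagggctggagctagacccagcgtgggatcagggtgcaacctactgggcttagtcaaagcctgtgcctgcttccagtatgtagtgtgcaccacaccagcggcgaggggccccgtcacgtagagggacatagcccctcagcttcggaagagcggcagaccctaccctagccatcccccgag
The RefSeq start of Tnfrsf4 used here lies 148 bases upstream of the start of the gene in GENCODE, and that of Tnfrsf9 lies 5593 bases downstream of it. Tnfrsf8 held both motifs, the kappaB-like match beginning 167 bases and the AP-1-like match 132 bases upstream of the start. Tnfrsf1b, Tnfrsf4 and the Tnfrsf9 start shown held neither, while the window of a further RefSeq start of Tnfrsf9 held both, beginning 42 and 15 bases upstream. Among the other members, the window of Fas held the AP-1-like motif and that of the Tnfrsf25 start shown the kappaB-like motif. The window of a further RefSeq start of Tnfrsf25 held neither. Of all 32851 such windows in the RefSeq table, 17.6% held the kappaB-like and 6.75% the AP-1-like motif, against 3 of 10 windows of the members for each. A match is a description of the letters in these windows and marks no bound site.

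Between genotypes, the additive edgeR fit called 4-1BB, OX40 and TNFR2, without a death domain, higher in the KO-labelled libraries. It called DR3, DR5 and TNFR1, with one, lower, while CD30, CD27 and Fas did not pass. DESeq2 with the same terms called only 4-1BB, OX40 and DR3, and TNFR2 differed mainly in rTreg. The additive fit called 6 of the 9 members for genotype, 3 higher and 3 lower, where 47.2% of all tested genes were called, 24.4% higher and 22.8% lower. A call is therefore common in this comparison, and the count of 6 lies near that background. Receptors without a death domain were called higher in 3 of 5 cases and lower in none, with a median genotype effect of 0.25. Death receptors were called lower in 3 of 4 cases and higher in none, with a median of −0.39, beside 0.00 over all tested genes. With upper-quartile scaling Cd27, without a death domain, was called lower as well, and Tnfrsf1b was not called. The genes were grouped with earlier results of these data known, so these counts too describe the family and test nothing about it. No member was at least 2-fold apart between genotypes in either state, where 6.12% of tested genes were so in aTreg and 4.75% in rTreg. As sums of CPM, the death receptors were at 207 in KO-labelled aTreg against 270 in WT aTreg and at 220 in KO-labelled rTreg against 269 in WT rTreg. Most of each sum was Tnfrsf25, at 127 against 178 CPM in aTreg and 131 against 170 CPM in rTreg. Receptors without a death domain summed to 1262 CPM in KO-labelled aTreg against 1182 in WT aTreg. In rTreg they summed to 991 CPM in the KO-labelled library against 819 in WT.

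Tnfrsf9 had the largest genotype effect among the 9 members. At 161 CPM in KO-labelled aTreg against 117 CPM in WT aTreg, and 115 CPM in KO-labelled rTreg against 73.1 CPM in WT rTreg, it was higher by 0.45 log2 units [0.38 to 0.53] in aTreg and 0.65 [0.55 to 0.75] in rTreg. It rose by 0.55 in the additive fit (SE 0.0704, edgeR adjusted p = 4.23e-05). Tnfrsf4 was higher by 0.39 [0.34 to 0.44] in aTreg and 0.49 [0.43 to 0.55] in rTreg, and rose by 0.44 (SE 0.0675, edgeR adjusted p = 0.000177). For Tnfrsf4 both KO-labelled libraries lay above both WT libraries, though KO-labelled rTreg, at 268 CPM, came close to WT aTreg, at 266 CPM. For Tnfrsf9 the genotypes overlap, since KO-labelled rTreg lay just below WT aTreg.

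Tnfrsf1b differed between genotypes mainly in rTreg. Its ratio was 0.04 [−0.002 to 0.09] in aTreg, at 425 CPM in the KO-labelled and 413 CPM in the WT library, and 0.46 [0.40 to 0.52] in rTreg, at 286 CPM in the KO-labelled and 208 CPM in the WT library. The aTreg ratio minus the rTreg ratio was −0.42 [−0.49 to −0.34], and 10.3% of tested genes had a larger difference of either sign, with a median size of 0.13 over all tested genes. With 1 library per combination this difference has no test beyond counting error. The additive effect was 0.25 (SE 0.0887, edgeR adjusted p = 0.0357). That call was lost with upper-quartile scaling (adjusted p = 0.0732) and in DESeq2 (adjusted p = 0.111).

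Tnfrsf25 had the clearest decrease. DR3, its product, is the receptor of TL1A. The gene was at 127 and 131 CPM in the KO-labelled aTreg and rTreg libraries, against 178 and 170 CPM in WT aTreg and WT rTreg, so the genotypes do not overlap. Its ratios were −0.48 [−0.56 to −0.41] in aTreg and −0.38 [−0.46 to −0.30] in rTreg, and it fell by 0.43 (SE 0.0661, edgeR adjusted p = 0.000174). It was also the only member under an adjusted p of 0.05 in the authors' deposited table of genotypes (adjusted p = 0.0055), where 16.6% of genes with an adjusted p were. It was likewise the only member that edgeR called when state was left out of the model, a fit that called 16.8% of the tested genes.

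Tnfrsf10b, the TRAIL receptor with a death domain in mice, was at 10.3 and 11.4 CPM in the KO-labelled aTreg and rTreg libraries and at 15.8 and 14.1 CPM in WT aTreg and WT rTreg, again with no overlap. It was lower by ratios of −0.61 [−0.87 to −0.35] in aTreg and −0.31 [−0.57 to −0.04] in rTreg, and fell by 0.46 (SE 0.160, edgeR adjusted p = 0.0312). Tnfrsf1a, the TNF receptor that recruits TRADD and RIPK1, was at 27.2 and 27.1 CPM in the KO-labelled aTreg and rTreg libraries and at 32.3 and 36.8 CPM in WT aTreg and WT rTreg. The ratios were −0.25 [−0.42 to −0.08] and −0.44 [−0.61 to −0.27], and the gene fell by 0.35 (SE 0.106, edgeR adjusted p = 0.0168). Neither was called by DESeq2 with the same terms, at adjusted p values of 0.223 for Tnfrsf10b and 0.170 for Tnfrsf1a. DESeq2 called 3 of the 9 members, Tnfrsf9 and Tnfrsf4 higher and Tnfrsf25 lower, where it called 26.1% of tested genes.

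Fas, Cd27 and Tnfrsf8 did not pass for genotype. Fas had a genotype effect of 0.00 (SE 0.0863, edgeR adjusted p = 0.994). Cd27 was lower in both KO-labelled libraries, with ratios of −0.22 [−0.27 to −0.17] in aTreg and −0.11 [−0.16 to −0.06] in rTreg, and had an effect of −0.16 (SE 0.0684, edgeR adjusted p = 0.064). With upper-quartile scaling Cd27 passed (adjusted p = 0.0216). Tnfrsf8 had a ratio of −0.51 [−0.77 to −0.26] in aTreg and of 0.16 [−0.31 to 0.63] in rTreg, and an effect of −0.25 (SE 0.212, edgeR adjusted p = 0.360). Its aTreg ratio minus its rTreg ratio was −0.67 [−1.18 to −0.15], and 3.16% of tested genes had a larger difference of either sign.

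**Figure D3:**
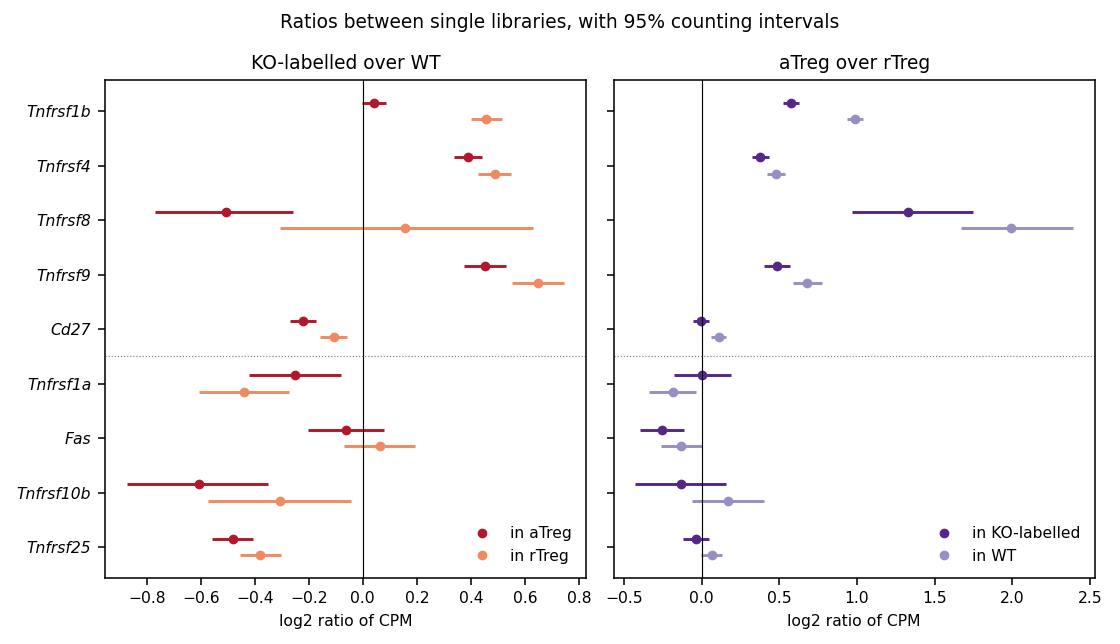
Log2 ratios of CPM between single libraries (horizontal axes) for the 9 receptors, KO-labelled over WT in each state on the left and aTreg over rTreg in each genotype on the right, with lines for 95% counting intervals and the death receptors below the dotted line. Tnfrsf1b stands at 0.04 in aTreg and 0.46 in rTreg on the left, and the state ratios of Tnfrsf8 reach 1.33 and 1.99 on the right.

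All 10 dividing-cell markers rose with genotype as well, beside 24.4% of all tested genes called higher. Their sums were 1282 and 1451 CPM in the KO-labelled aTreg and rTreg libraries against 286 and 538 CPM in WT aTreg and WT rTreg. Their part in the genotype effects of the receptors was not tested.

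Genes whose profile over the 4 libraries was nearest to that of a receptor were taken for the 3 members of widest range, by the Euclidean distance between log2 CPM centred on each gene's mean, among 9271 tested genes. For Tnfrsf1b these were Cyfip1 (distance 0.0226 log2 units), Plscr1 (0.0403) and Hspa2 (0.0703). Cyfip1, which regulates actin through the WAVE complex, was at 80.9 and 54.3 CPM in KO-labelled aTreg and rTreg and at 79.3 and 39.0 CPM in WT aTreg and WT rTreg. For Tnfrsf9 they were Rilpl2 (0.0845), the zinc transporter gene Slc39a6 (0.0854) and the potassium channel gene Kcnk5 (0.0881). For Tnfrsf8 they were Angptl2 (0.141), Ttn (0.300) and Rin2 (0.369). With only 4 libraries such likeness is a description.

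Of 10 ligand genes of the TNF family, 5 passed the level minimum. Of these, 3 (Tnf, Ltb and Tnfsf10) rose in aTreg while none fell, beside 7.91% of all tested genes called higher and 5.44% lower. Tnf was at 38.3 CPM in KO-labelled aTreg against 22.4 CPM in KO-labelled rTreg, and at 43.5 CPM in WT aTreg against 14.8 CPM in WT rTreg, so it rose by 1.16 (SE 0.153, edgeR adjusted p = 0.000299). Ltb, which encodes a lymphotoxin chain, rose by 0.30 (SE 0.0800, edgeR adjusted p = 0.0251), and Tnfsf10, which encodes TRAIL, rose by 0.31 (SE 0.0853, edgeR adjusted p = 0.0314). For genotype, where 47.2% of all tested genes were called, Lta alone of the 5 passed, at 60.5 and 60.8 CPM in KO-labelled aTreg and rTreg against 51.7 and 50.2 CPM in WT aTreg and WT rTreg, and rose by 0.25 (SE 0.0764, edgeR adjusted p = 0.0161). Fasl, under the level minimum, had 90 and 48 counts in KO-labelled aTreg and rTreg against 127 and 132 counts in WT aTreg and WT rTreg. Cd70, the ligand of CD27, had 5 and 1 counts in KO-labelled aTreg and rTreg and 0 in both WT libraries, where 3 counts would be 0.146 CPM in aTreg and 0.143 CPM in rTreg.

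Of 9 tested genes of death receptor signalling, 3 rose in the KO-labelled libraries and none fell, beside the 24.4% of all tested genes called higher. The median genotype effect of the 9 was 0.03. Fadd, the adaptor of Fas, was at 16.1 and 15.6 CPM in KO-labelled aTreg and rTreg against 10.1 and 8.58 CPM in WT aTreg and WT rTreg, and rose by 0.77 (SE 0.159, edgeR adjusted p = 0.00152). Bid, which links caspase-8 to mitochondria, rose by 0.49 (SE 0.102, edgeR adjusted p = 0.00174). Ripk3, the kinase of necroptosis, rose by 0.39 (SE 0.0745, edgeR adjusted p = 0.000902). Tradd, the adaptor of TNFR1 and DR3, had a genotype effect of −0.11 (SE 0.0923, edgeR adjusted p = 0.341). For state, 2 of the 9 fell and none rose, beside 5.44% of all tested genes called lower: Casp8, the initiator caspase gene, fell by 0.32 (SE 0.0675, edgeR adjusted p = 0.00707), and Daxx fell by 0.21 (SE 0.0645, edgeR adjusted p = 0.0461).

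Of 15 tested TRAF and ubiquitin adaptor genes, 2 rose with state and none fell, where 7.91% of all tested genes were called higher. Traf1, itself known as an NF-kappaB target, was at 268 CPM in KO-labelled aTreg against 197 CPM in KO-labelled rTreg, and at 266 CPM in WT aTreg against 187 CPM in WT rTreg, and rose by 0.48 (SE 0.0663, edgeR adjusted p = 0.000428). Traf2, which binds TNFR2 and the adaptor TRADD, rose by 0.28 (SE 0.0666, edgeR adjusted p = 0.0135). For genotype, none of the 15 rose and 3 fell, a share near the 22.8% of all tested genes called lower. Tnfaip3, which encodes A20, a ubiquitin-editing brake on TNF receptor signals, was at 1591 and 1546 CPM in KO-labelled aTreg and rTreg against 2370 and 2340 CPM in WT aTreg and WT rTreg, and fell by 0.59 (SE 0.0681, edgeR adjusted p = 1.9e-05). Tnip1, which encodes an A20-binding protein, fell by 0.25 (SE 0.0663, edgeR adjusted p = 0.00712). Traf6 fell by 0.26 (SE 0.0645, edgeR adjusted p = 0.00528).

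Of 15 NF-kappaB genes, all tested, 4 rose with state (Nfkb2, Relb, Nfkbid and Nfkbie) and none fell, where 7.91% of all tested genes were called higher. Relb, a subunit of the noncanonical pathway, rose by 0.42 (SE 0.0774, edgeR adjusted p = 0.00293), and its partner Nfkb2 rose by 0.38 (SE 0.0674, edgeR adjusted p = 0.00246). Nfkbid, a nuclear member of the IkappaB family, rose by 0.60 (SE 0.100, edgeR adjusted p = 0.00163). For genotype, 4 rose (Nfkb2, Nfkbib, Nfkbie and Bcl3) and 5 fell (Nfkb1, Rel, Ikbkb, Map3k14 and Nfkbid), beside 24.4% of all tested genes called higher and 22.8% lower, so these counts lie near the background. Bcl3, likewise a nuclear IkappaB family member, rose by 0.82 (SE 0.0668, edgeR adjusted p = 1.12e-06), and Ikbkb, which encodes a kinase of IkappaB proteins, fell by 0.40 (SE 0.0663, edgeR adjusted p = 0.000318). Of 17 further receptors of the superfamily, 15 were in the count table and 6 were tested. Of those 6, 2 fell with genotype, beside the same 22.8%, and none was called for state. Tnfrsf12a, the receptor of TWEAK, fell by 1.22 (SE 0.179, edgeR adjusted p = 0.000121), and Relt fell by 0.35 (SE 0.0758, edgeR adjusted p = 0.00223).

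**Figure D4:**
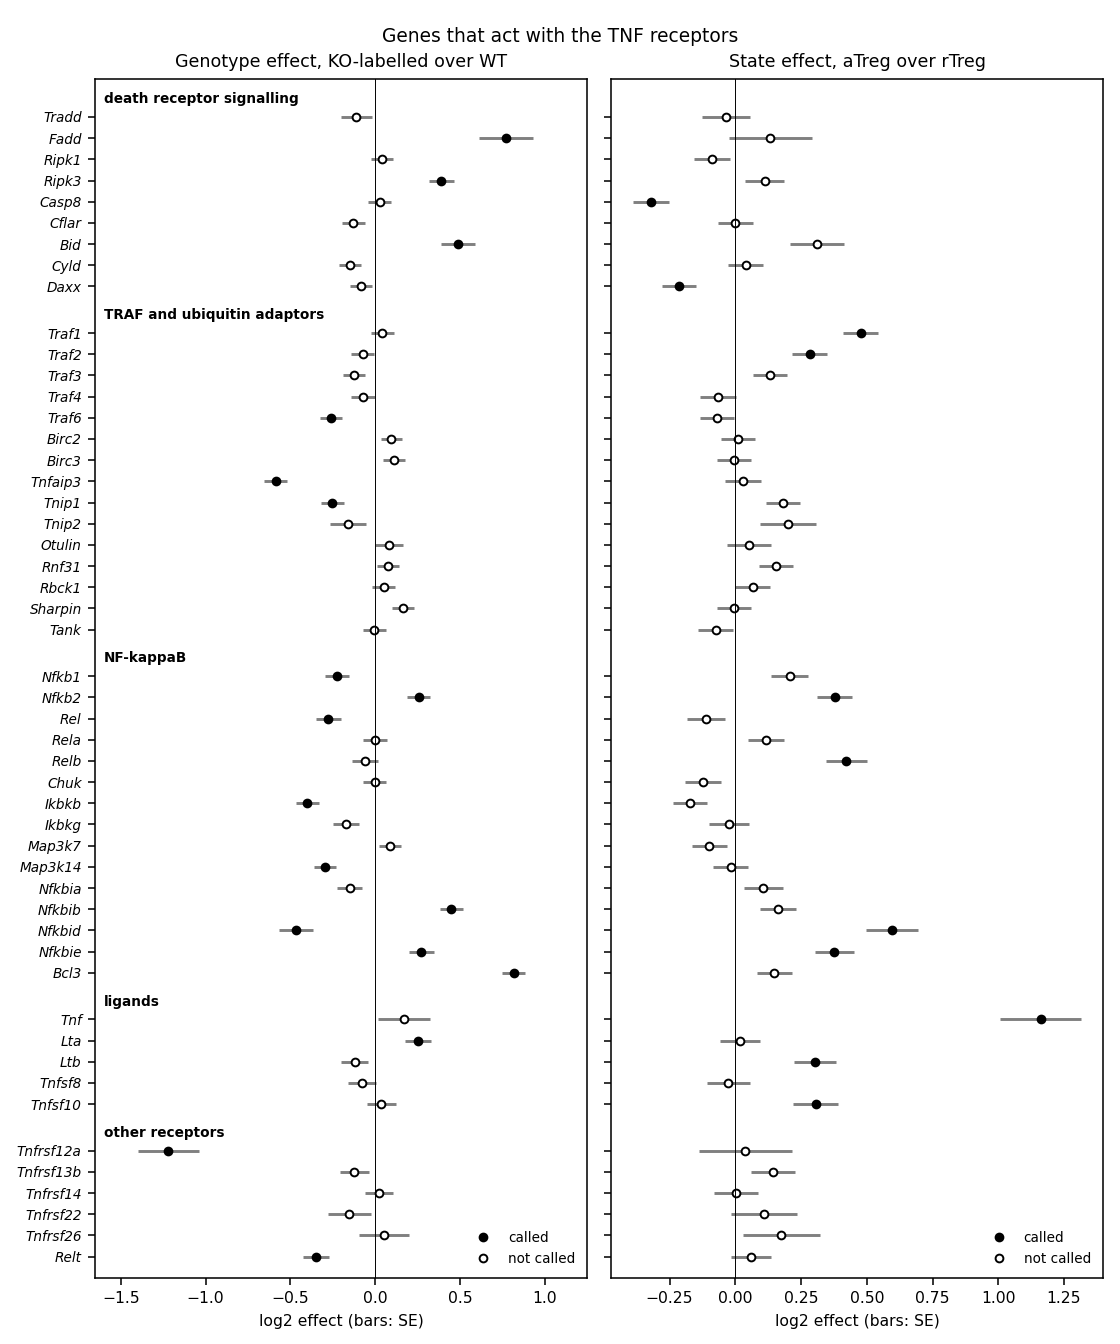
Effects of genotype (left, log2 of KO-labelled over WT) and of state (right, log2 of aTreg over rTreg) in the additive edgeR fit for the tested genes of 5 lists that act with the TNF receptors, with bars of 1 SE and filled points where the adjusted p was under 0.05. Bcl3 and Fadd lie furthest to the right on the left side and Tnfrsf12a and Tnfaip3 furthest to the left, and Tnf has the largest state effect, at 1.16.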

How the data were processed

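Libraries came from TRIzol-extracted RNA and a SMARTer kit, per the labels' protocols. The submitters' processing notes name HISAT2 2.2.1, featureCounts 2.0.1 and GRCm38. Annotation and use of strand: not given in the sources used here. The deposited counts are whole reads per gene symbol, not normalized. A further table deposited by the authors holds variance-stabilised values on a log2-like scale, a log2 fold change of WT over KO with its error, a mean signal (counts divided by size factors), a test statistic (a score) and its p-values.

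Here, counts were scaled with TMM (factors 0.995 to 1.01), filtered at a mean of 5 CPM (9680 genes, 99.3% of counts) and fitted with edgeR 4.0.16 in R 4.3.3 on all 4 libraries, with state and genotype as additive terms, and with DESeq2 1.42.0 as an alternative. The additive fit was also run on simulated counts with known additive changes, drawn with its own estimate of spread. Such a run cannot show how well the fit holds for these libraries without replicates. Each SE given for an effect is the size of the log2 effect divided by the square root of its edgeR quasi-likelihood F statistic. Single-library ratios use log2 CPM with a prior count of 2 and exact binomial intervals on raw counts, which, like the limit of 3 counts, cover counting error only. Levels per kilobase use exon unions of GENCODE M21, which need not be the authors' annotation.

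All 9 members are named whatever their values; from each pathway list all tested genes are counted and up to 6 named by size of change or by direct contact with a member, and the genes behind a count of 5 or fewer are named beyond that number. Members, lists and tests were chosen with earlier results of these data known. Some genes of the lists are not reported here and are left out of their counts and sums.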

Additional observations from a re-analysis of the deposited data

Results flagged for a closer look

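For 6 members the same contrast pointed in opposite directions at the levels of the other factor. None of these differences was tested, since each direction rests on 1 library against 1. Between genotypes, Tnfrsf8 had a log2 ratio of −0.51 in aTreg and 0.16 in rTreg, and Fas of −0.0618 in aTreg and 0.0620 in rTreg. In both genes the counting interval of the rTreg ratio includes 0. That of the aTreg ratio includes 0 for Fas (−0.20 to 0.08) but not for Tnfrsf8 (−0.77 to −0.26). Between states, Tnfrsf1a had a log2 ratio of 0.0024 in the KO-labelled pair and −0.19 in WT, Tnfrsf10b of −0.13 and 0.17, Tnfrsf25 of −0.0382 and 0.0641, and Cd27 of −0.0049 and 0.11. For these 4 genes the counting interval of the KO-labelled pair includes 0. That of the WT pair does too for Tnfrsf10b (−0.06 to 0.40) and Tnfrsf25 (−0.003 to 0.13), but not for Tnfrsf1a and Cd27.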

How the results depend on the processing

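For genotype, 6 members were called with the main settings, with DESeq2 size factors, with upper-quartile scaling (2 higher and 4 lower) and without a level minimum, 3 by DESeq2 and 1 by edgeR with state left out. For state, 4 were called under every alternative except edgeR with genotype left out, which called 0 (and 0 of all genes, against 1626 for genotype). Over all genes, DESeq2 called 2527 for genotype and 423 for state against 4573 and 1293 in the additive edgeR fit. Upper-quartile scaling shifted the median genotype effect to −0.04 from 0.00, with 43.3% of called genes higher against 51.7%. Members at least 2-fold apart between states numbered 1 in each genotype under each scaling and prior count, and 0 between the deposited variance-stabilised values. The genotype effect of Fas, close to 0, turned to −0.0044 with DESeq2 size factors, −0.046 with upper-quartile scaling and −0.0048 in DESeq2. No paired analysis was possible because the labels carry no replicate numbers and each group has 1 library, and no library can be left out without losing the last residual degree of freedom. Low counts limit Tnfrsf8 and Tnfrsf10b most.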
